A study of Mus musculus with 12 samples.

Results

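The comparison described here set 3 cultures treated with WM-3835, a small-molecule inhibitor of the histone acetyltransferase KAT7 (also called HBO1), against 3 cultures given the solvent DMSO. These were 6 of the 12 RNA-seq libraries of the study, chosen by their labelled treatment, and every gene with a symbol was included (25867 genes, of which 17523 were abundant enough to test). All 6 came from wild-type C57BL/6 mice. Thymic lobes were taken from E15.5 embryos and kept as fetal thymic organ cultures in 1.35 mM 2'-deoxyguanosine for 4 to 5 days, which kills thymocytes. They were then moved to fresh medium with an agonist anti-RANK antibody at 10 µg/mL for 3 days, and the thymic epithelial cells were sorted, so DMSO and WM-3835 cultures shared both of these exposures. The titles of the treated samples spell the compound WM-3825 and their treatment field spells it WM-3835 (the latter spelling is used below). The labels give neither its dose, nor when it was added, nor how many embryos went into a culture. The other 6 libraries were 3 controls and 3 RosaCre-ERT2 Kat7 fl/fl knockouts, all given tamoxifen, which are used below to set a gene's change beside its change after loss of Kat7 and, in an alternative fit to all 12 libraries, in the estimate of the spread.

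KAT7 is a MYST-family enzyme that transfers acetyl groups to histones H3 and H4. It works in complexes in which a JADE or BRPF scaffold protein and the small subunits MEAF6 and ING4 or ING5 direct it to chromatin. Thymic epithelium has a cortical part, where thymocytes are positively selected, and a medullary part, where AIRE makes the cells transcribe genes of other tissues so that self-reactive T cells can be removed or diverted. Signals through the receptor RANK drive medullary cells towards AIRE expression, and some of their descendants take on features of cells of other organs, such as ciliated, muscle, tuft or secretory cells.

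Library totals of the 6 libraries were between 26656847 and 52368012 read counts, so 3 counts corresponded to 0.0577 to 0.113 CPM (counts per 1000000 library counts, with totals scaled by the TMM method). The first principal component held 58.8% of the variance and separated the DMSO from the WM-3835 libraries, and the second held 14.7% and set WM-3835 1 apart from WM-3835 3. Squared deviations between replicates of a group averaged 8.65 to 19.3 times what counting error alone gives, so no pair was a library deposited in duplicate. Epcam was at 516 to 801 CPM and Krt8 at 1613 to 2246 CPM in every library, while the 10 thymocyte genes too low to test, among them Cd3e and Cd8a, were at most 0.673 CPM and Rag2 was at 0 in all 6 libraries. All 15 thymocyte genes summed to 13.6 to 15.2 CPM with DMSO and 14.3 to 18 CPM with WM-3835, most of it Lck, the 1 of 5 tested that was called (10.2, 7.86 and 9.7 CPM with DMSO and 13.7, 10.1 and 14.2 CPM with WM-3835, overlapping, 0.45 ± 0.16, adjusted p = 0.04), and that call was lost without DMSO 1, DMSO 2, DMSO 3, WM-3835 1 or WM-3835 3 and in the 12-library fit (adjusted p up to 0.16). Xist and the Y-linked Ddx3y were both present in every library, and WM-3835 2 had the lowest Xist (1916, 841 and 2118 CPM in WM-3835 1, 2 and 3) with the highest Ddx3y (50.5, 74.4 and 26.2 CPM); neither gene was called.

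WM-3835 changed a large share of the transcriptome, with many small changes in both directions and the deepest changes mostly downwards. Of 17523 genes tested with edgeR's quasi-likelihood test, 6070 (34.6%) had a Benjamini-Hochberg adjusted p below 0.05 and are referred to as called. Of these, 3012 (17.2% of genes tested) were higher and 3058 (17.5%) were lower with WM-3835. The counts of called members of gene lists given below stand beside these shares. Changes below 1.5-fold made up 55.1% of the calls. Above 2-fold the balance was uneven, with 416 genes (2.37%) higher and 1141 (6.51%) lower (8.89% together), and above 4-fold 62 were higher and 402 lower. For 47.9% of genes, called or not, the libraries of the groups did not overlap. The median log2 change over all genes was -0.00. Each library is a bulk sample of sorted cells, so fewer cells of a type and less RNA per cell cannot be told apart. Values written below as a ± b are log2 fold changes, WM-3835 against DMSO, with their SE (n = 3 libraries in each group).

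**Figure D1:**
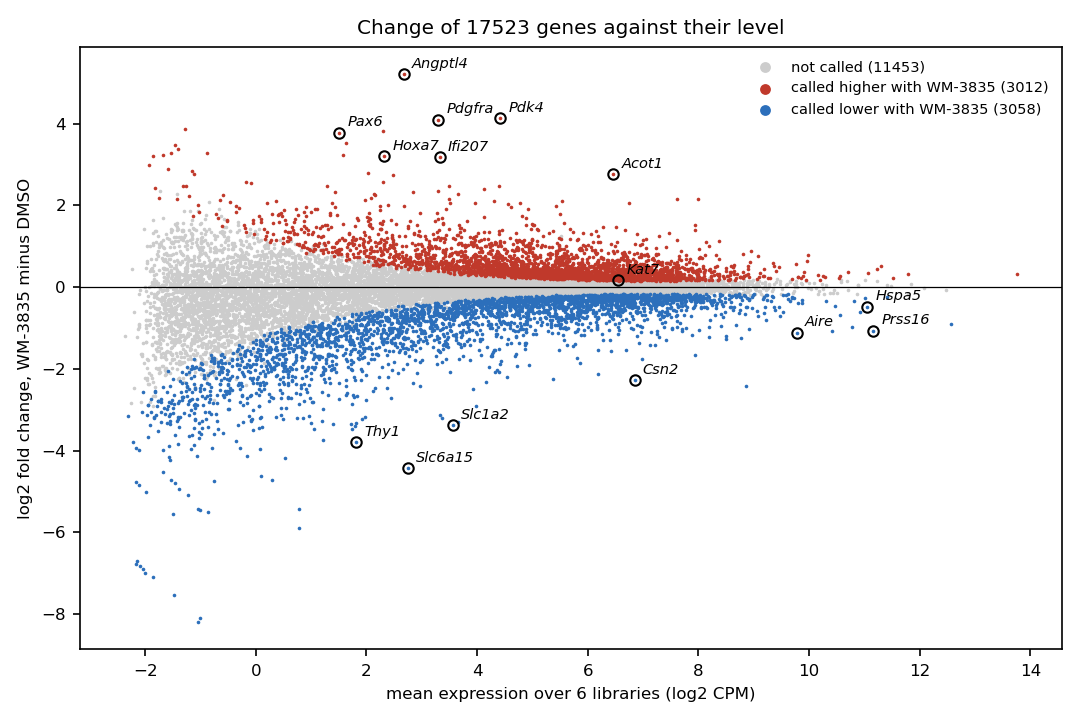
Log2 fold change with WM-3835 (y axis) against mean log2 CPM over the 6 libraries (x axis), 1 point per gene; red points were called higher (3012), blue lower (3058) and grey neither. The called genes of low expression lie mostly below 0, and the circled genes are described in the text.

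The balance of rises and falls differed with expression level. In the lowest quartile of expression the median log2 change was -0.35, with 3.38% of genes called higher and 16.5% lower, while the medians of the other quartiles were -0.00, 0.05 and 0.03. A weak gene could enter the test through DMSO libraries alone or through WM-3835 libraries alone. With every library thinned to 26473241 counts, 20657, 19716 and 20153 genes had at least 1 count in DMSO 1, 2 and 3, and 18805, 19620 and 19099 in WM-3835 1, 2 and 3. All WM-3835 libraries were below all DMSO libraries, and the difference of the means was -1001 genes. The two-sided exact permutation p was 0.1, the smallest value 3 against 3 libraries can give. Without thinning the groups overlapped and the exact permutation p was 0.2.

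Transcripts of the drug's target were slightly more abundant with the drug. Kat7 was at 88.6, 84.6 and 89 CPM in DMSO 1, 2 and 3 and at 98.4, 99.9 and 99.3 CPM in WM-3835 1, 2 and 3. The groups did not overlap, and the log2 change was 0.18 ± 0.06 (SE; adjusted p = 0.026). The call was lost in the 12-library fit (adjusted p = 0.16), under upper-quartile scaling (0.075) and when any 1 of the 6 libraries was left out (0.0501 to 0.061). An mRNA level does not measure the enzyme's activity, so it does not check that the inhibitor acted.

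Several partners of KAT7 rose. Of 10 complex genes, 5 were called higher, Kat7 among them, and 0 lower, with a median log2 change of 0.19. Over all genes, 17.2% were called higher and 17.5% lower. The count of rises was 4 in the 12-library fit and without any 1 library. It was 2 in a test against a change of 1.2-fold. The scaffold gene Jade2 changed most, from 64.3, 71.1 and 66.7 CPM to 109.8, 107 and 101 CPM (0.65 ± 0.06, adjusted p = 5.1e-06). The subunit genes Meaf6 (0.56 ± 0.09) and Ing4 (0.37 ± 0.07) and the scaffold gene Jade1 (0.30 ± 0.06) rose too, and the BRPF scaffolds Brpf1, Brpf3 and Brd1 had log2 changes of -0.07, 0.04 and -0.15 that were not called. Among the other acetyltransferases, Kat2b (PCAF) rose by 0.59 ± 0.06 and Kat6b by 0.37 ± 0.08, while Ep300 (0.17 ± 0.07) and Crebbp (0.08 ± 0.10) were not called. Of 16 deacetylase genes, 6 were called higher and 2 lower. Sirt1, a NAD-dependent deacetylase that also acts on AIRE, went from 209, 234 and 208 CPM to 113, 129 and 121 CPM (-0.85 ± 0.07, adjusted p = 1.1e-06). The 6 rises among deacetylases were small, 0.21 to 0.43. The 12-library fit and the fit without DMSO 3 called 2 deacetylase genes higher, and that without WM-3835 3 called 3.

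Genes of fatty acid use were among the largest rises. By the rule used to name genes (the 12 largest called changes each way with a mean log2 CPM of at least 1 and groups that do not overlap), Angptl4 and Pdk4 led. Angptl4 (chr17:33774900-33781575), which encodes a secreted inhibitor of lipoprotein lipase, was at 0.56, 0 and 0.304 CPM in DMSO 1, 2 and 3 and at 11.9, 12.4 and 13 CPM in WM-3835 1, 2 and 3. Its log2 change was 5.21 ± 0.39 (SE; adjusted p = 4.3e-07). Pdk4 (chr6:5483351-5496278), whose product switches off pyruvate dehydrogenase, was at 2.66, 1.57 and 2.44 CPM with DMSO and 41.3, 41.8 and 38.6 CPM with WM-3835, 17.7-fold higher. Acot1 (chr12:84009502-84017670), a cytosolic acyl-CoA thioesterase gene, was at 23.7, 20.5 and 22.8 CPM with DMSO and 150.1, 158 and 153 CPM with WM-3835. In each of these genes the 3 treated libraries lay close together and far above the controls. The log2 change of Pdk4 was 4.14 ± 0.15 (SE; adjusted p = 7.9e-10) and that of Acot1 2.78 ± 0.07 (SE; adjusted p = 3.4e-11).

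The other genes that respond to the fatty acid receptors of the PPAR family moved less. Of 35 listed PPAR targets, 31 were tested, and 17 were called higher and 3 lower, with a median log2 change of 0.40. Cpt1a, which controls entry of long-chain fatty acids into mitochondria, was at 209, 215 and 201 CPM with DMSO and at 453, 473 and 439 CPM with WM-3835, 2.18-fold higher. The mitochondrial beta-oxidation genes Acadl (1.01 ± 0.06), Acaa2 (1.08 ± 0.10), Acadvl (0.68 ± 0.07), Hadhb (0.61 ± 0.11), Acadm (0.47 ± 0.07) and Hadha (0.44 ± 0.06) all rose. So did the mitochondrial thioesterase Acot2 (1.17 ± 0.09), the uncoupling protein gene Ucp2 (1.42 ± 0.11) and the lipid droplet coat gene Plin2 (1.09 ± 0.14). Cpt2, Slc25a20 and Ehhadh were not called. The list was not uniform: Lpl, the lipase that ANGPTL4 inhibits, fell from 216, 192 and 214 CPM to 84.7, 119 and 90.7 CPM (-1.08 ± 0.10), and Fgf21 (-0.74 ± 0.07) and Fabp4 (-0.63 ± 0.22) also fell, the call for Fabp4 being lost without DMSO 1, DMSO 2, WM-3835 1 or WM-3835 3 and in the 12-library fit (adjusted p up to 0.21). A direct repeat of AGGTCA with 1 base between the copies, sought on both strands of the 250 bases before the RefSeq start, was in none of the 22 list genes with a RefSeq promoter and in 0.0407% of all 27025 promoters.

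**Figure D2:**
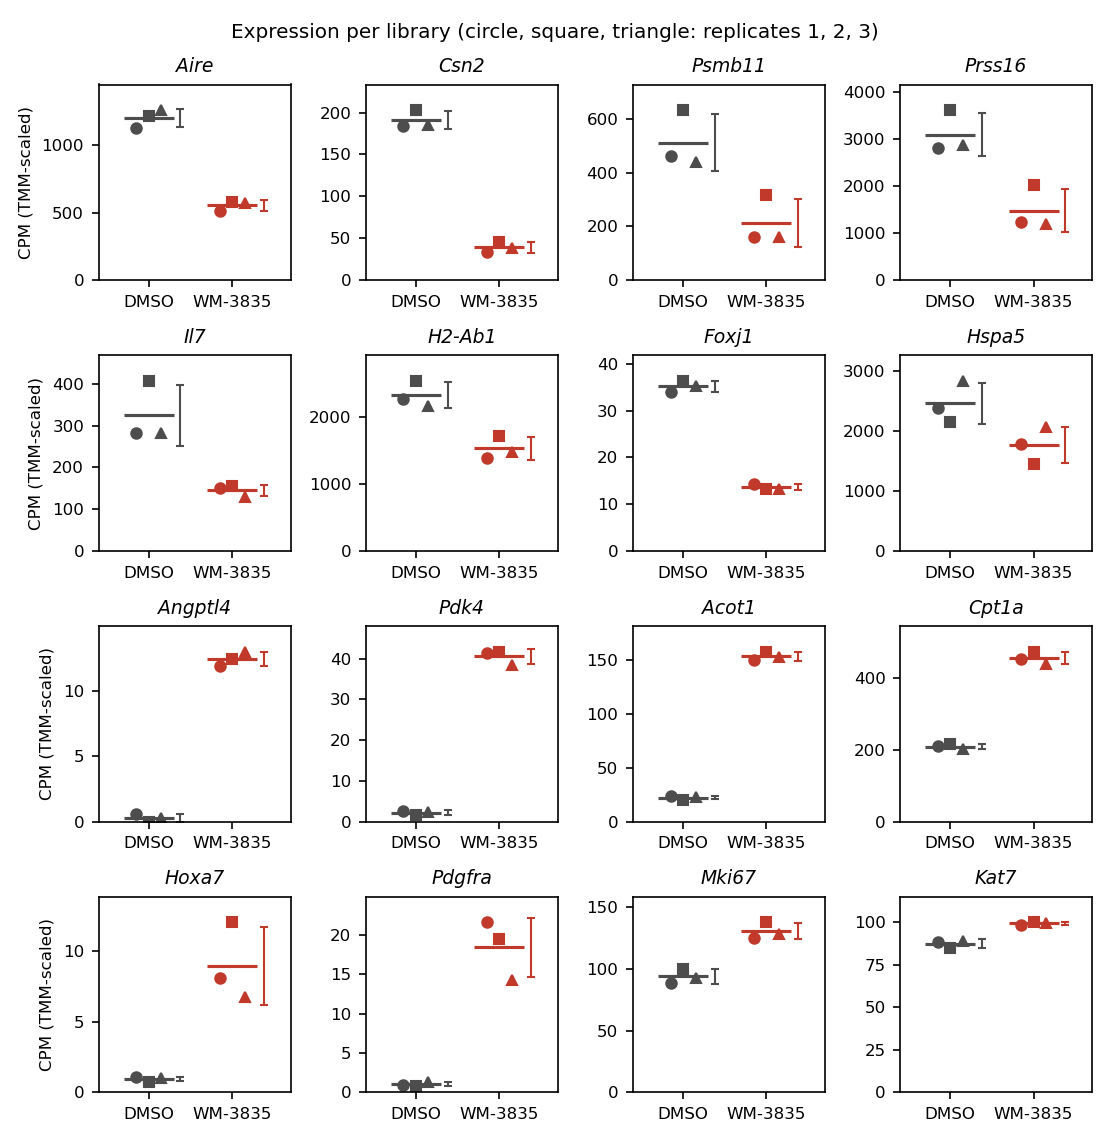
TMM-scaled CPM of 16 genes in each of the 6 libraries (y axes start at 0); grey DMSO, red WM-3835, markers for replicates 1, 2 and 3, horizontal bars for group means and the bars beside them for ± 1 SD. The treated libraries of Acot1 lie near 150 CPM against 20.5 to 23.7 CPM with DMSO, and replicate 2 is highest in Psmb11 and Prss16 in both groups.

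Genes of lipid synthesis rose alongside those of lipid use. Of 20 fatty acid synthesis genes, 8 were called higher and 2 lower (median 0.19). Scd2, which desaturates stearoyl-CoA, was at 2064, 1967 and 2162 CPM with DMSO and 2882, 3049 and 2992 CPM with WM-3835, with no overlap. Fads2 (0.66 ± 0.07), Scd1 (0.73 ± 0.08), Elovl6 (0.67 ± 0.11), Acly (0.58 ± 0.06) and Fasn (0.58 ± 0.08) rose by similar amounts. Acacb, whose product makes the malonyl-CoA that blocks CPT1, went the other way, from 11.7, 9.43 and 10.7 CPM to 3.91, 4.33 and 3.64 CPM (-1.42 ± 0.16), and the glucose-sensing factor gene Mlxipl fell by 0.74 on the log2 scale (not called in the 12-library fit). Srebf1 was not called (-0.03 ± 0.07). Of 25 cholesterol genes, 12 were called higher and 2 lower (median 0.18), 7 of the rises remaining in a test against a change of 1.2-fold. Insig1, a sterol sensor that holds SREBP in the endoplasmic reticulum, was highest among these at 0.79 ± 0.07, followed by Acat2 (0.71 ± 0.08) and Tm7sf2 (0.61 ± 0.09).

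Other metabolic groups rose by small amounts. Of 22 respiratory chain genes, 14 were called higher and 1 lower (median 0.22), among them Sdha (0.35 ± 0.06), Uqcrc1 (0.37 ± 0.06) and Ndufs1 (0.39 ± 0.07). The count of rises was 8 in the 12-library fit, 9 without DMSO 3 and 1 in a test against a change of 1.2-fold. Of 26 glycolysis and hypoxia genes, 10 were called higher and 4 lower, led upwards by the glucose transporter gene Slc2a1 (0.46 ± 0.07) and downwards by Ankrd37 (-0.64 ± 0.17). The 12-library fit called 5 of these higher and 2 lower, with Slc2a1 not among them (adjusted p = 0.15), and 1 rise remained in the 1.2-fold test. Of 23 targets of the antioxidant regulator NRF2, 11 were called higher and 1 lower (median 0.21). Gclc, the rate-limiting enzyme of glutathione synthesis, was at 84.3, 92.2 and 93.8 CPM with DMSO and 166, 174 and 185 CPM with WM-3835 (0.96 ± 0.07, adjusted p = 2.1e-07). The glutathione peroxidase gene Gpx2 rose by 1.91 ± 0.17 and G6pdx, of the pentose phosphate pathway, by 0.83 ± 0.08, but the classical targets Nqo1 (0.13 ± 0.09) and Hmox1 (0.07 ± 0.09) were not called. Of 30 cytosolic ribosomal protein genes, 0 were called higher and 18 lower, the largest fall being that of Rps19 (-0.50 ± 0.08; list median -0.21). The 12-library fit called 9 of them, the fit without DMSO 1 called 11, and 1 remained in a test against a change of 1.2-fold.

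A block of the Hoxa cluster on chromosome 6 was another of the largest rises. Hox genes encode homeodomain factors that give cells positional identity, and Hoxa3 is needed to form the thymus. Hoxa7 (chr6:52215623-52218573) was at 1.08, 0.748 and 1.01 CPM with DMSO and 8.05, 12 and 6.73 CPM with WM-3835, and changed by 3.21 ± 0.26 (SE; adjusted p = 9.6e-07). Hoxa5 (chr6:52201754-52204587) was at 0.27, 0.299 and 1.08 CPM and 5.34, 6.69 and 3.92 CPM (3.25 ± 0.44, adjusted p = 6.9e-05). Mira (chr6:52214491-52215288), a non-coding RNA gene between Hoxa6 and Hoxa7, was at 1.2, 0.224 and 0.351 CPM and 7.02, 12.6 and 7.95 CPM (3.83 ± 0.42, adjusted p = 1.1e-05). No library of the groups overlapped in these genes, and WM-3835 2 was highest in all of them. Hoxa6 (3.29 ± 0.79) and Hoxa9 (2.26 ± 0.60) were called as well, from levels of at most 0.374 CPM with DMSO. The call for Hoxa6 was lost in the 12-library fit (adjusted p = 0.19) and that for Hoxa9 without DMSO 1 or DMSO 3 and in the 12-library fit (adjusted p up to 0.23). The neighbours from Hoxa2 to Hoxa4 did not follow: Hoxa2 fell by 0.41 on the log2 scale (lost without WM-3835 3 and in the 12-library fit (adjusted p up to 0.073)), Hoxa3 (0.01 ± 0.11) and Hoxa4 (0.34 ± 0.25) were not called, and the cofactor gene Meis1 fell by 0.43. The library kit does not keep strand, so reads of overlapping or antisense transcripts in the cluster cannot be told apart. In the other clusters, examined after these values had been seen, Hoxb4, Hoxc6 and Hoxc13 were called higher and Hoxb3 and Hoxd3 lower, among 7 Hoxb, 6 Hoxc and 2 Hoxd genes tested. The call for Hoxc13 was lost without any 1 library and in the 12-library fit (adjusted p up to 0.51) and that for Hoxd3 without DMSO 3 or WM-3835 3 and in the 12-library fit (adjusted p up to 0.27).

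**Figure D3:**
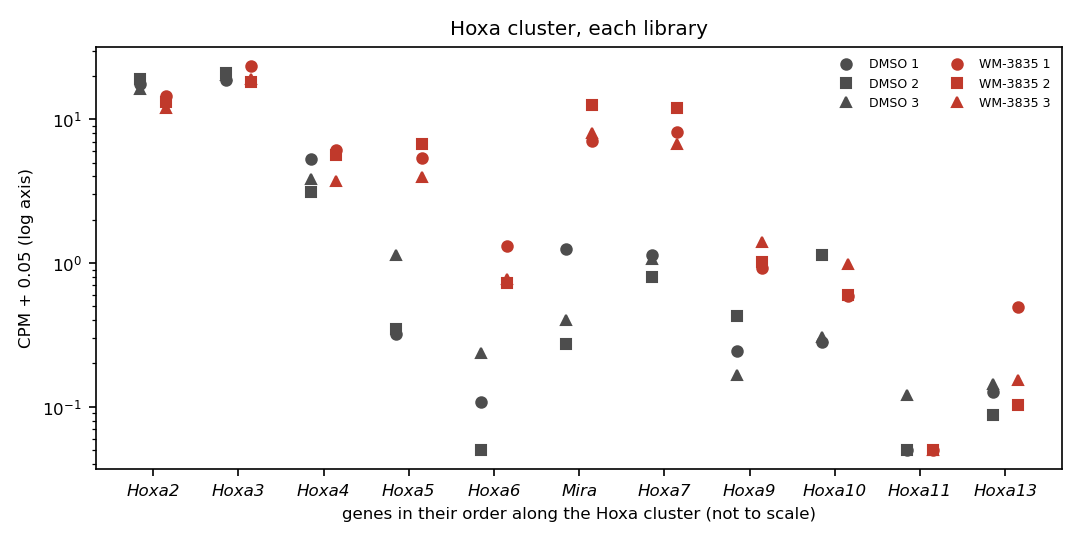
CPM + 0.05 on a log axis for Hoxa genes and Mira in each of the 6 libraries, in their order along the chromosome (distances not to scale); grey DMSO, red WM-3835, markers for replicates. From Hoxa5 to Hoxa9 every red marker lies above every grey one, and the groups overlap at Hoxa3 and Hoxa4.

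The remaining large rises belonged to no single pathway. Pdgfra, a receptor for platelet-derived growth factor usually seen in mesenchymal cells, was at 0.985, 0.861 and 1.34 CPM with DMSO and 21.6, 19.4 and 14.3 CPM with WM-3835 (4.10 ± 0.21, adjusted p = 1.9e-08). The other fibroblast genes moved both ways: of 15 tested, 3 were called higher and 5 lower. Fap (0.86 ± 0.12) and Col3a1 (0.56 ± 0.18) rose with it, and Pdgfrb (-1.09 ± 0.17), Dcn (-1.10 ± 0.16), Thy1 and Fbn1 fell. The call for Col3a1 was lost without DMSO 1 or WM-3835 2 and in the 12-library fit (adjusted p up to 0.19), and 3 of the 5 falls, without Fbn1, were called in the 12-library fit. The list summed to 101 to 121 CPM with DMSO and 93.8 to 109.7 CPM with WM-3835, and its part in the rise of Pdgfra was not tested. Pax6, a regulator of eye and endocrine pancreas development, was at 0.232, 0.524 and 0.422 CPM with DMSO and 5.77, 4.9 and 4.96 CPM with WM-3835, and Foxf1, a forkhead factor of foregut mesenchyme, at 1.06, 1.12 and 0.89 CPM and 6.6, 7.13 and 7.5 CPM. The log2 changes were 3.79 ± 0.33 and 2.79 ± 0.22. Fbp2, a gluconeogenic enzyme of muscle, changed by 3.54 ± 0.31 and Plekhd1 by 2.74 ± 0.18, both without overlap.

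Interferon-related genes rose as a broad, mostly small shift. Ifi207 (chr1:173723424-173741831), a member of the interferon-inducible p200 family, was at 2.08, 2.1 and 1.8 CPM with DMSO and 17.6, 13.9 and 22.8 CPM with WM-3835 (3.18 ± 0.19, adjusted p = 6.9e-08). Of 24 interferon response genes tested, 19 were called higher and 1 lower, with a median log2 change of 0.38. Irf7, a transcription factor that amplifies interferon production, went from 319.97, 357 and 292 CPM to 535, 599 and 571 CPM (0.82 ± 0.08, adjusted p = 3.3e-06). The RNA sensor gene Ifih1 (0.60 ± 0.06) and the antiviral genes Oasl1 (1.12 ± 0.10), Oas1a (0.54 ± 0.07) and Mx1 (0.79 ± 0.11) rose too. Irf9, a factor that carries the interferon signal to the nucleus, was not called (-0.13 ± 0.06). Ifnb1 was at or below 0.486 CPM in every library and was not tested. In a test against a change of 1.2-fold, 10 of the 19 rises remained. No gene was called lower without DMSO 1, DMSO 2, WM-3835 1 or WM-3835 3.

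Genes of the cell division cycle rose together. Of 32 DNA replication genes, 19 were called higher and 0 lower (median 0.43), and of 24 mitosis genes, 20 were called higher and 0 lower (median 0.48). Lig1, the ligase that joins Okazaki fragments, was at 41.3, 42.5 and 42.7 CPM with DMSO and 69.1, 70.2 and 70.3 CPM with WM-3835 (0.73 ± 0.06, adjusted p = 2.0e-06). The helicase subunit genes Mcm2 to Mcm7 rose by 0.36 to 0.71 on the log2 scale, and Mcm6 was among the clearest (0.62 ± 0.07). KAT7 is known for its part in loading this helicase at replication origins. The proliferation marker Mki67 went from 88.6, 99.9 and 92.6 CPM to 125, 138 and 128 CPM (0.48 ± 0.07, adjusted p = 9.1e-05), and the kinesin genes Kif23 (1.00 ± 0.12), Cenpe (0.78 ± 0.09) and Kif20a (0.70 ± 0.09) rose as well. Groups did not overlap in any of these. The mitosis count was 8 in the 12-library fit. Inhibitors of the cycle moved both ways: Cdkn2a (1.34 ± 0.23), Cdkn2b (0.81 ± 0.15) and Cdkn1a (0.29 ± 0.06) rose, while Cdkn1b fell from 109, 122 and 109 CPM to 72.3, 68.8 and 70.6 CPM (-0.68 ± 0.06). Of the p53 targets and inhibitors tested, 9 were called higher and 5 lower, with a median of -0.05. The counts were 5 and 3 without WM-3835 1 and in the 12-library fit, and 3 were lower without DMSO 3 or WM-3835 2. Upper-quartile scaling gave 5 higher and 7 lower.

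The deepest falls were in weakly expressed genes, several of them transporters or parts of cilia. Slc6a15 (chr10:103367808-103419379), a neutral amino acid transporter of the brain, was at 13, 12.7 and 12.1 CPM with DMSO and 0.47, 0.882 and 0.382 CPM with WM-3835, and changed by -4.42 ± 0.25 (SE; adjusted p = 3.5e-08). Slc1a2 (chr2:102658239-102790784), a glutamate transporter of astrocytes, was at 18.4, 21.9 and 23.7 CPM and 1.57, 2.08 and 2.64 CPM (-3.37 ± 0.18, adjusted p = 2.7e-08). Crocc2, a rootletin-like gene, was at 19.6, 22.3 and 26.5 CPM and 1.79, 2.46 and 2.74 CPM (-3.31 ± 0.18, adjusted p = 2.4e-08). In these genes every treated library lay far below every control. The surface glycoprotein gene Thy1 fell by 3.79 on the log2 scale, and the 3 treated libraries were uneven, at 0.112, 1.22 and 0.0347 CPM. The airway protease gene Tmprss11d fell by 3.73, the antimicrobial gene Ang4 by 3.48, Tmem132e by 3.47 and the sialidase gene Neu2 by 3.39. Deup1, needed for the bodies that multiply centrioles in ciliated cells, fell by 3.35, as did Fam184a. Siglec15, a sialic acid receptor of osteoclasts, fell by 3.32 and Ttll6, which adds glutamate chains to the tubulin of cilia, by 3.28.

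Aire, the gene the anti-RANK antibody was given to induce, fell by more than 2-fold, and many antigens known to depend on it fell too. Aire (chr10:78030022-78043610) was at 1125, 1216 and 1261 CPM in DMSO 1, 2 and 3 and at 509.6, 583 and 572 CPM in WM-3835 1, 2 and 3. All treated libraries were below all controls, and the log2 change was -1.11 ± 0.07 (SE; adjusted p = 1.1e-07). Of 25 listed AIRE-dependent antigens, 17 were abundant enough to test, and 0 were called higher and 9 lower, with a median log2 change of -1.24. The count of falls was 6 in the 12-library fit and without DMSO 1 or DMSO 3. The summed level was 249 to 268 CPM with DMSO and 77.7 to 87.1 CPM with WM-3835. Most of that sum was Csn2, a milk casein gene, at 184, 203 and 185 CPM with DMSO and 33.2, 45.8 and 38.9 CPM with WM-3835 (-2.28 ± 0.10, adjusted p = 6.6e-09). The neutrophil protein gene S100a8 fell from 5.68, 7.93 and 5.83 CPM to 1.01, 1.27 and 2.15 CPM, and the apolipoprotein gene Apoa4 from 7.43, 9.88 and 6.56 CPM to 3.11, 3.58 and 3.4 CPM. Gp2 (-0.12 ± 0.24), S100a9 (-0.67 ± 0.39) and Sprr2f (-0.17 ± 0.40), which are on the same list, were not called.

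Calls among antigens not known to need AIRE went both ways, and the medians of their lists were below 0. Fezf2, which encodes a second regulator of self-antigens, was at 138, 138 and 132 CPM with DMSO and 133, 139 and 134 CPM with WM-3835, and the groups overlapped (-0.01 ± 0.06). Of 13 FEZF2-dependent antigens tested, 2 were called higher and 2 lower (median -0.26), near the shares of 17.2% and 17.5% over all genes. The calcium-binding protein gene Calb1 went up from 1.41, 1.53 and 1.34 CPM to 6.01, 10.5 and 8.88 CPM (2.57 ± 0.24, adjusted p = 2.9e-06), and Csmd1 went down from 14, 13 and 20.2 CPM to 6.93, 5.06 and 6.07 CPM (-1.39 ± 0.18, adjusted p = 5.1e-05). Of 7 tested antigens known not to need AIRE, 1 was called higher and 3 lower (median -0.61). The rise, of Mbp, was lost without DMSO 1, DMSO 2, WM-3835 2 or WM-3835 3 and in the 12-library fit (adjusted p up to 0.19), and the fall of Tg without DMSO 1, DMSO 3, WM-3835 1 or WM-3835 2 and in the 12-library fit (adjusted p up to 0.19). Among 21 genes for proteins that work with AIRE, 6 were called higher and 1 lower. The topoisomerase genes Top2a (0.40 ± 0.08) and Top1 (0.23 ± 0.06) and the DNA-dependent kinase gene Prkdc (0.36 ± 0.08) rose and Sirt1 was the 1 call downwards. The 12-library fit called 3 of the rises, without Top2a and Prkdc.

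Other medullary genes split. Of 20 mature medullary genes, 3 were called higher and 8 lower (median -0.08), and of 15 immature ones, 2 were called higher and 8 lower (median -0.24). The transcription factor gene Irf8 was at 120.5, 110.4 and 108 CPM with DMSO and 54.2, 61.6 and 46.9 CPM with WM-3835 (-1.06 ± 0.09, adjusted p = 1.2e-06). The median of the mature list was -0.02 without WM-3835 1 and -0.24 without WM-3835 3, and 4 immature genes were called higher without WM-3835 2. Spib of the mature list was called at 0.18 ± 0.06. That call was lost without DMSO 1, DMSO 2, DMSO 3, WM-3835 2 or WM-3835 3 and in the 12-library fit (adjusted p up to 0.16). The tight junction genes Cldn3 (1.09 ± 0.10) and Cldn4 (0.60 ± 0.06), which mark AIRE-lineage cells, rose. Among immature genes, Trp63, the p63 gene that keeps epithelial progenitors, was at 235, 265 and 233 CPM with DMSO and 129, 123 and 117 CPM with WM-3835 (-0.99 ± 0.07, adjusted p = 2.2e-07), and the groups did not overlap. Ccl21a, the chemokine that draws new thymocytes into the medulla, fell by 0.71 and the apolipoprotein gene Apoe by 1.05 on the log2 scale, whereas Cd24a (0.57 ± 0.07) and Plet1 (0.68 ± 0.13) rose.

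Genes for presenting antigen on MHC class II fell without a change called in their master regulator. Of 16 class II genes, 1 was called higher and 9 lower (median -0.34). H2-Ab1, a chain of the I-A molecule, was at 2272, 2539 and 2161 CPM with DMSO and 1394, 1716 and 1479 CPM with WM-3835 (-0.60 ± 0.08, adjusted p = 1.0e-04). The peptide-loading genes H2-Ob (-2.70 ± 0.34) and H2-DMb2 (-1.05 ± 0.09) and the protease gene Ctss (-1.02 ± 0.11), which cuts the invariant chain, fell further. Ciita, the class II transactivator, was at 231, 216 and 229 CPM with DMSO and 207, 239 and 202 CPM with WM-3835 (-0.06 ± 0.07), and the invariant chain Cd74 at 5878, 6119.98 and 5549 CPM and 5168, 5979 and 5591 CPM (-0.07 ± 0.07). Both overlapped between groups. Class I genes were divided, with 5 of 16 called higher and 5 lower: Nlrc5 (0.76 ± 0.07), the class I transactivator, Erap1 (0.62 ± 0.06), which trims peptides, and Psme1 (0.60 ± 0.06) of the proteasome rose, and the peptide transporter gene Tap2 fell by 0.50 on the log2 scale. The lower count was 2 in the 12-library fit and without DMSO 3 or WM-3835 2, and 3 without DMSO 1 or WM-3835 1. Of the class I chains, H2-K1 (0.07 ± 0.06) and B2m (0.02 ± 0.07) were not called.

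Several genes listed for the RANK pathway showed modest falls, and signalling through the pathway was not measured. Of 17 genes of RANK and non-canonical NF-kB signalling, 1 was called higher and 8 lower (median -0.20). The ubiquitin ligase gene Birc2 was at 249, 282 and 255 CPM with DMSO and 167, 164 and 159 CPM with WM-3835 (-0.68 ± 0.06, adjusted p = 3.1e-06), and Cd40, the co-receptor for T-cell help, at 94.7, 107 and 94.6 CPM and 57.7, 64.8 and 67.8 CPM (-0.64 ± 0.08, adjusted p = 2.6e-05). Relb, the transcription factor at the end of the pathway, fell by 0.28 and Map3k14, its upstream kinase gene, by 0.23 on the log2 scale. The call for Map3k14 was lost without DMSO 1, WM-3835 1 or WM-3835 3 and in the 12-library fit (adjusted p up to 0.063). The receptor gene Tnfrsf11a was not called (112, 124 and 127 CPM and 93, 117 and 108 CPM, -0.20 ± 0.08), and its decoy Tnfrsf11b fell by 0.37. Ikbkg was the 1 gene called higher (0.46 ± 0.07). In the 12-library fit 5 genes were called lower, and 2 in a test against a change of 1.2-fold. Of 19 canonical NF-kB genes tested, 3 were called higher and 4 lower, near the shares of 17.2% and 17.5% over all genes. Rela (0.33 ± 0.06) and Cxcl1 (0.77 ± 0.19) were up and Birc3 (-0.37 ± 0.06) was down. Of these genes, 2 were called lower in the 12-library fit and without DMSO 3, WM-3835 1 or WM-3835 3.

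Cortical genes fell broadly. Of 16, 2 were called higher and 11 lower, with a median log2 change of -0.75, and they summed to 18958 to 21757 CPM with DMSO and 11275 to 14111 CPM with WM-3835. Ctsl, the protease that makes class II peptides in the cortex, was at 8370.4, 7644 and 7536 CPM with DMSO and 4019, 4338 and 4261 CPM with WM-3835 (-0.90 ± 0.07, adjusted p = 4.3e-07). Il7, the survival cytokine of thymocytes, was at 283, 408 and 282 CPM and 149.9, 156 and 129.8 CPM (-1.16 ± 0.12, adjusted p = 7.6e-06). Psmb11, the catalytic subunit of the thymoproteasome, was at 461, 633 and 441 CPM and 161, 315 and 161 CPM (-1.27 ± 0.21, adjusted p = 4.0e-04). In these 3 genes no treated library reached a control. Tbata (-1.07 ± 0.13), the serine protease gene Prss16 (-1.06 ± 0.16), the chemokine gene Ccl25 (-1.03 ± 0.18), the Notch ligand gene Dll4 (-0.94 ± 0.18) and Cd83 (-1.55 ± 0.20) fell as well. In both groups, replicate 2 had the highest Psmb11, Prss16, Ccl25, Dll4 and Cd83. Foxn1, the transcription factor on which thymic epithelium depends, fell by only 0.42 on the log2 scale, from 253, 249 and 243 CPM to 174, 218 and 164 CPM. Enpep, the surface peptidase known as Ly51, went the other way (0.72 ± 0.07), as did Bmp4 (1.37 ± 0.20).

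Signals that the epithelium sends to other cells changed in opposite directions. Of 18 chemokine and cytokine genes tested, 2 were called higher and 6 lower. Besides Il7 and Ccl25, the T-zone chemokine gene Ccl19 fell from 6.8, 6.7 and 6.89 CPM to 2.19, 1.97 and 2.46 CPM (-1.62 ± 0.20, adjusted p = 2.7e-05), and Cxcl9 fell by 0.89 on the log2 scale. Cx3cl1, the membrane-bound fractalkine gene, was at 80.8, 84 and 77.7 CPM with DMSO and 163, 170.5 and 164 CPM with WM-3835 (1.04 ± 0.06, adjusted p = 4.3e-08). Ccl5 rose by 1.39 ± 0.13, and Cxcl12 was not called (-0.21 ± 0.13).

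Most called regulators of the early organ fell, and genes of epithelial identity moved both ways. Of 15 organ regulators, 2 were called higher and 8 lower (median -0.24). Pax1 was at 907, 945 and 819 CPM with DMSO and 607, 622 and 515 CPM with WM-3835 (-0.61 ± 0.08). Eya1 (-0.37 ± 0.06) and Pax9 (-0.24 ± 0.08), which like Pax1 act in the pharyngeal pouch, fell too, and 2 of the 8 falls remained in a test against a change of 1.2-fold. The call for Pax9 was lost without DMSO 1, DMSO 2, DMSO 3, WM-3835 2 or WM-3835 3 (adjusted p up to 0.13). The ETS factors Elf3 (89.7, 71.4 and 86 CPM and 191, 155 and 166 CPM, 1.05 ± 0.09) and Ehf (0.92 ± 0.09) were the 2 rises. Of 10 epithelial identity genes, 5 were called higher and 4 lower (median 0.03). Epcam went from 541, 568 and 516 CPM to 751, 762 and 801 CPM (0.51 ± 0.06, adjusted p = 3.4e-05), and Krt19 rose by 0.71 ± 0.12. The keratins Krt5 (-0.24 ± 0.09), Krt14 (-0.43 ± 0.10) and Krt18 (-0.27 ± 0.08) fell, and Krt8 was not called (-0.16 ± 0.10). The call for Krt5 was lost without DMSO 1, DMSO 2, WM-3835 2 or WM-3835 3 (adjusted p up to 0.17), that for Krt14 in the 12-library fit (adjusted p = 0.17) and that for Krt18 without DMSO 1, DMSO 2, WM-3835 1 or WM-3835 3 and in the 12-library fit (adjusted p up to 0.1).

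Genes of ciliated cells, one of the programmes that medullary cells share with other organs, fell almost throughout. Of 16, 0 were called higher and 13 lower, with a median log2 change of -1.30, and they summed to 138 to 155 CPM with DMSO and 72.8 to 79.2 CPM with WM-3835. Foxj1, the factor that switches on motile cilia, was at 34, 36.4 and 35.3 CPM with DMSO and 14.3, 13.2 and 13.2 CPM with WM-3835 (-1.37 ± 0.09, adjusted p = 1.2e-07). Mcidas, which starts the formation of many cilia, was at 5.35, 7 and 5.86 CPM and 1.25, 0.934 and 0.59 CPM (-2.67 ± 0.28, adjusted p = 8.2e-06). Rsph1, of the radial spoke, was at 4.48, 5.5 and 6.56 CPM and 1.32, 1.17 and 1.11 CPM (-2.19 ± 0.25, adjusted p = 1.6e-05). No treated library overlapped a control in these genes. Spag6l, of the central pair of microtubules, fell by 3.32 and Trp73, the p73 gene that acts upstream of Foxj1, by 1.38 on the log2 scale. Rfx3, which many cells use for immotile cilia, was not called (0.14 ± 0.09).

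The other such cell programmes were mixed. Of 12 muscle genes tested out of 17, 1 was called higher and 8 lower, and 5 were lower in the 12-library fit and without DMSO 2. The giant muscle protein gene Ttn went from 7.18, 9.65 and 8.74 CPM to 2.5, 3.68 and 3.05 CPM (-1.47 ± 0.20, adjusted p = 7.4e-05), and the acetylcholine receptor gene Chrnd from 10.5, 3.89 and 8.6 CPM to 3.18, 2.36 and 3.5 CPM. Of 17 gut and airway secretory genes tested, 3 were called higher and 8 lower. Bpifa1, an airway surface protein gene, was at 741, 551 and 559 CPM with DMSO and 343, 186 and 246 CPM with WM-3835 (-1.26 ± 0.17, adjusted p = 7.1e-05), and the pepsinogen gene Pgc fell by 2.72 on the log2 scale. In contrast the goblet-cell regulator gene Spdef (1.52 ± 0.34) and the mucin gene Muc5b (1.16 ± 0.28) rose, and WM-3835 1 was far above the others in Muc5b (70.1, 22.7 and 38.2 CPM). Of 16 enterocyte and hepatocyte genes tested, 2 were called higher and 7 lower. Foxa1 (0.72 ± 0.09) and the brush-border gene Vil1 (1.43 ± 0.24) rose, but the list median was -0.31. The deepest fall was that of the albumin gene Alb, by 3.32 on the log2 scale. Its call was lost without DMSO 1, DMSO 2, DMSO 3, WM-3835 1 or WM-3835 2 and in the 12-library fit (adjusted p up to 0.16).

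Tuft, microfold, cornified and neuroendocrine genes showed few or opposed calls, beside 17.2% higher and 17.5% lower over all genes. Of 18 tuft genes, 1 was called higher and 3 lower (0 and 5 without DMSO 2, 2 higher without DMSO 1, 0 without WM-3835 1 and 3 without WM-3835 2). Their master regulator gene Pou2f3 was at 7.22, 6.59 and 5.5 CPM with DMSO and 5.99, 4.67 and 8.22 CPM with WM-3835 and was not called, whereas the taste-signalling subunit genes Gng13 (-1.38 ± 0.28) and Gnb3 (-0.94 ± 0.15) fell. Of 11 microfold genes, 5 were called higher and 3 lower; the chemokine gene Ccl9 (1.41 ± 0.15) and Tnfaip2 (1.12 ± 0.09) were up and Nfatc1, a RANK target, down (-0.45 ± 0.08). The count of rises was 3 without DMSO 1 or DMSO 3. Of 16 cornified genes tested, 3 were called higher and 3 lower. The largest of these calls was the fall of Lypd3, from 5.56, 4.45 and 4.8 CPM to 0.805, 1.5 and 2.08 CPM. Of 16 neuroendocrine genes, 0 were called higher and 4 lower, among them Scg2 (-1.54 ± 0.16), Insm1 (-0.59 ± 0.09) and Syt1 (-0.37 ± 0.11, lost without DMSO 2, DMSO 3 or WM-3835 1 and in the 12-library fit (adjusted p up to 0.078)). Chga was at 28.4, 27.5 and 25 CPM with DMSO and 16, 37.4 and 143 CPM with WM-3835 and was not called, with WM-3835 3 standing apart. That library also had the highest parathyroid hormone gene, Pth, at 4.65, 9.49 and 42.3 CPM in WM-3835 1, 2 and 3 against 6.22, 2.88 and 3.07 CPM with DMSO, and the call for Pth (log2 change 2.16 ± 0.59) was lost without it (0.78, adjusted p = 0.12), without DMSO 2 or DMSO 3 and in the 12-library fit.

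**Figure D4:**
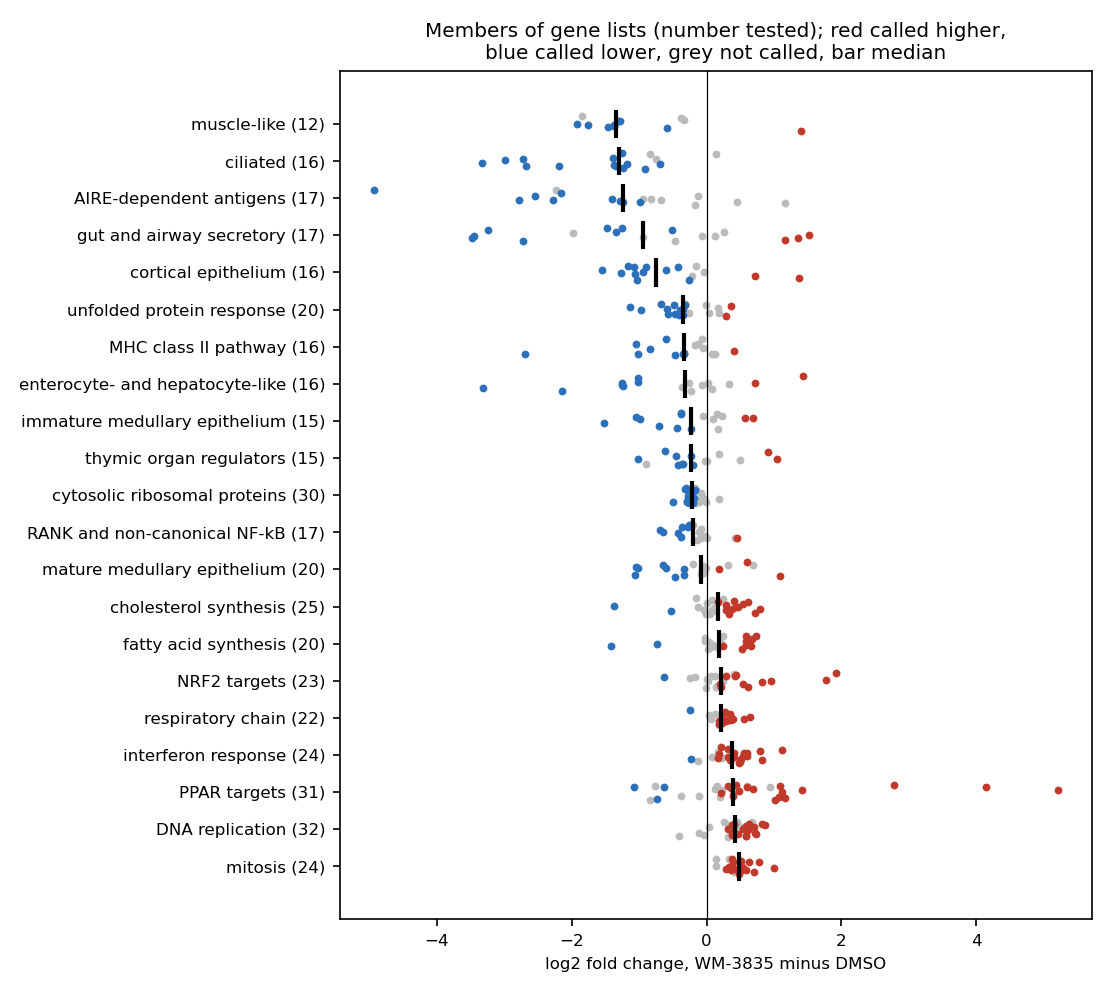
Log2 fold change with WM-3835 (x axis) for each tested gene of 21 lists (y axis), 1 point per gene, red called higher, blue called lower, grey not called, with a bar at the list median. The ciliated list has 13 of 16 genes called lower and the mitosis list 20 of 24 called higher.

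Chaperones of the endoplasmic reticulum fell together. The unfolded protein response raises such chaperones when proteins pile up in that compartment, through the sensors IRE1, PERK and ATF6. Of 20 genes of the response, 2 were called higher and 12 lower (median -0.34), and 7 were called lower without DMSO 3. They summed to 7838 to 10226 CPM with DMSO and 5590.2 to 7390.3 CPM with WM-3835. Hspa5, the main chaperone BiP, was at 2391, 2149 and 2837 CPM with DMSO and 1786, 1452 and 2060.1 CPM with WM-3835 (-0.48 ± 0.12, adjusted p = 0.0059). Sdf2l1, which works with BiP, was at 100.03, 85.4 and 128 CPM and 52.5, 31.4 and 58.9 CPM (-1.14 ± 0.18, adjusted p = 2.9e-04). Creld2, a secreted stress protein gene, was at 249.5, 224 and 303 CPM and 139, 109.97 and 149 CPM (-0.97 ± 0.11, adjusted p = 2.3e-05). In both groups replicate 3 was highest and replicate 2 lowest in these genes, and the groups did not overlap. Hsp90b1 (-0.67 ± 0.11), Manf (-0.58 ± 0.11) and Pdia4 (-0.57 ± 0.11) fell too. The regulators did not fall: Xbp1 (0.37 ± 0.09) and the IRE1 gene Ern1 (0.29 ± 0.09) rose, and Atf6 (0.19 ± 0.10) and the PERK gene Eif2ak3 (0.17 ± 0.09) were not called. The call for Ern1 was lost without DMSO 2, WM-3835 1 or WM-3835 3 and in the 12-library fit (adjusted p up to 0.12).

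Many of these chaperone genes carry the ER stress response element, CCAAT followed after 9 bases by CCACG, near their start, and the windows are shown for 6 genes of the response that hold it. Each is given on the gene's strand with 20 bases on either side, from RefSeq promoters on GRCm38.p6, the 2 conserved blocks in capitals (in Creld2 the element runs in reverse).
Hspa5: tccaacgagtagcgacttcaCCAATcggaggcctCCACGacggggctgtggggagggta
Hsp90b1: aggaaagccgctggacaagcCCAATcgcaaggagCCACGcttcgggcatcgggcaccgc
Dnajc3: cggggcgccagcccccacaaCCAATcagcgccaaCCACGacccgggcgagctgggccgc
Pdia6: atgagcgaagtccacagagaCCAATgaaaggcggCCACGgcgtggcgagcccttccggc
Creld2: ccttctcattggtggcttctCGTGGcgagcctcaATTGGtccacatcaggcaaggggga
Syvn1: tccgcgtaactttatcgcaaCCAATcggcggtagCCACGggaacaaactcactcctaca
The windows lie at chr2:34772005-34772063 (+ strand), chr10:86705618-86705676 (- strand), chr14:118937807-118937865 (+ strand), chr12:17266471-17266529 (+ strand), chr15:88819500-88819558 (+ strand) and chr19:6046512-6046570 (+ strand). The element was sought on both strands of the 250 bases before each start, a search added after the values had been seen, and 0.13% of 27025 promoters held it. Among tested genes with a promoter, 22 held it (0.166%), of which 13 were called lower and 0 higher, against 17.5% of all genes lower. Searches for other elements had been planned. Tested genes with a CCAAT box or a sterol, NF-kB, NRF2 or heat shock element were called lower in 16.7 to 17.7%, and those with an ATF4 element in 24.1%. The median log2 change of the 22 genes was -0.44. Of the 17 listed genes with a promoter, 7 held it, and 6 of these were called lower (Syvn1 was not, -0.31 ± 0.12). The call for Dnajc3 was lost without DMSO 3 (adjusted p = 0.054). That for Calr was lost without DMSO 3 or WM-3835 2 and in the 12-library fit (adjusted p up to 0.10). Of the 10 listed genes without the element, 4 were called lower. Of 15 holders outside the list, 7 were called lower. They were Ero1b (-0.68 ± 0.07), Derl3 (-0.73 ± 0.23) and Canx (-0.24 ± 0.08), all of this compartment, and Acacb, Tdrd9, Xlr3a and Gm20560. The others, among them Alg12 (-0.31 ± 0.13) and Calr4 (-0.64 ± 0.64), were not called. Alg12 and Creld2 share 1 element, and both were counted. The related genes Xlr3a, Xlr3b and Xlr3c hold elements of the same letters, and each was counted. The call for Derl3 was lost without DMSO 1, DMSO 3 or WM-3835 2 and in the 12-library fit (adjusted p up to 0.16) and that for Canx without DMSO 1, DMSO 3, WM-3835 1 or WM-3835 2 and in the 12-library fit (adjusted p up to 0.17). A match of letters is not a test of binding.

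Other stress responses showed no common direction. Over all genes, 17.2% were called higher and 17.5% lower. Of 23 genes of the integrated stress response, 4 were called higher and 8 lower, and 3 were lower in the 12-library fit. Fgf21, a stress hormone gene, went from 404, 454 and 452 CPM to 249.6, 248 and 286 CPM (-0.74 ± 0.07, adjusted p = 5.2e-06), and Atf4 itself fell by 0.24 on the log2 scale, while Cebpb (0.73 ± 0.09) and the serine synthesis gene Psat1 (0.38 ± 0.07) rose. Ddit3 was not called (-0.14 ± 0.10). Of 16 heat shock genes, 5 were called higher and 2 lower: the small heat shock genes Cryab (1.28 ± 0.14) and Hspb1 (0.82 ± 0.11) led, and Hsp90aa1 and Hsp90ab1 were not called. The count of rises was 2 under upper-quartile scaling and without WM-3835 1 or WM-3835 3, and 3 without DMSO 1 or DMSO 3. Of 21 immediate early genes, which respond to tissue handling, 4 were called higher and 3 lower (median -0.02), near the shares over all genes. Fosb fell by 0.95 on the log2 scale and the phosphatase genes Dusp6 (0.86 ± 0.09) and Dusp1 (0.73 ± 0.11) rose. The count of rises was 2 without DMSO 2, DMSO 3 or WM-3835 1, and that of falls 5 without WM-3835 1.

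Counts among matrix and signalling genes stand beside 17.2% higher and 17.5% lower over all genes. Of 22 matrix and TGF-beta genes tested, 6 were called higher and 5 lower. Lox, which cross-links collagen, was at 105, 97.2 and 98.3 CPM with DMSO and 271, 244 and 246 CPM with WM-3835 (1.34 ± 0.07, adjusted p = 1.5e-08), and Tgfb3 at 40.4, 39 and 37.9 CPM and 109, 101 and 94.9 CPM (1.38 ± 0.07, adjusted p = 1.9e-08). The basement membrane collagens Col4a1 (-0.69 ± 0.07) and Col4a2 (-0.97 ± 0.08) fell. No group overlapped in these 4 genes. Of 17 Notch genes, 2 were called higher and 4 lower: the receptor gene Notch3 rose from 147, 138 and 147 CPM to 286, 264 and 252 CPM, and Dll4, Dtx1 (-1.59 ± 0.31), Jag2 (-0.27 ± 0.07) and Heyl (-0.50 ± 0.14) fell. The rises were 1 without DMSO 1, DMSO 3, WM-3835 1 or WM-3835 2. Without WM-3835 2 the falls were 7 and without WM-3835 3 they were 2, with Jag2 lost without WM-3835 1 or WM-3835 3 (adjusted p up to 0.066) and Heyl without DMSO 2 or WM-3835 3 and in the 12-library fit (adjusted p up to 0.12). Of 26 Wnt genes, 6 were called higher and 6 lower, with the ligand Wnt5a up (0.79 ± 0.14) and the receptor Fzd1 down (-0.40 ± 0.08); 3 were called higher in the 12-library fit. Of 12 EGF family genes tested, 3 were called higher and 0 lower: Btc (0.75 ± 0.15), Erbb2 (0.43 ± 0.06) and Erbb3 (0.27 ± 0.10). Btc was not called in the 12-library fit (adjusted p = 0.11), and Erbb3 was lost without DMSO 1, DMSO 2, WM-3835 1 or WM-3835 3 and in the 12-library fit (adjusted p up to 0.19).

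Markers of other cells were low. Macrophage and dendritic cell genes summed to 159.7 to 184 CPM with DMSO and 159 to 161 CPM with WM-3835, and of 15 tested 1 was called higher and 2 lower (1 lower without DMSO 2 or WM-3835 1, and 0 in the 12-library fit). Endothelial genes summed to 22.1 to 25.9 CPM with DMSO and 17.8 to 21.9 CPM with WM-3835. Of 8 tested, 1 was called higher and 2 lower (median -0.42). The rise was that of Flt1, a VEGF receptor gene (1.53, 1.27 and 1.73 CPM to 7, 7.19 and 6.42 CPM), while Pecam1 stayed at or below 0.726 CPM and was not called. Egfl7 fell by 2.22 on the log2 scale. Its call was lost without DMSO 1, DMSO 2, WM-3835 1 or WM-3835 3 and in the 12-library fit (adjusted p up to 0.18). Genes listed for B cells and innate lymphoid cells summed to 53 to 58.8 CPM with DMSO and 81.9 to 88.1 CPM with WM-3835. Id2 and Tbx21 (not called in the 12-library fit) were among the rises there, while Klrd1 was at 0 in every library. Red cell genes summed to 7.57 to 9.17 CPM with DMSO and 3.29 to 5.53 CPM with WM-3835. The part of these cells in the results above was not tested.

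Changes after loss of Kat7 differed from those with the compound for 13 of the 24 largest rises and falls. These 24 were chosen for extreme changes in the same WM-3835 and DMSO libraries, which favours a difference. Their count therefore cannot be set against the share over all genes. Both comparisons were read from 1 fit to all 12 libraries, in which 3490 of 18670 genes (18.7%) were called with WM-3835 and 2646 (14.2%) in the knockout, and 1887 (10.1%) had changes that differed between them. Pdk4 changed by -0.21 ± 0.24 in the knockout, and the difference between the changes was 4.38 ± 0.34 (SE; adjusted p = 3.5e-07). For Angptl4 the knockout value was -0.41 ± 0.52 and the difference 5.69 ± 0.80 (SE; adjusted p = 1.3e-04). Acot1 changed by 0.16 ± 0.09 in the knockout, with a difference of 2.62 ± 0.13 (SE; adjusted p = 6.9e-10). None of these 3 genes was called in the knockout. Hoxa7 changed by 2.88 ± 0.82 in the knockout, and its difference of 0.35 ± 1.21 (SE; adjusted p = 0.91) was not called. Ang4 fell in both, by 2.81 in the knockout. Deup1 changed by 0.03 ± 0.50 in the knockout (difference -3.40 ± 0.73, adjusted p = 0.0048), and Slc6a15 by -2.12 ± 0.37 (difference -2.31 ± 0.52, adjusted p = 0.0067). Aire changed by -0.24 ± 0.08 in the knockout, and its difference was -0.87 ± 0.11 (SE; adjusted p = 4.7e-05). The knockout groups differ from the wild-type ones in tamoxifen and genotype as well as in the way KAT7 was lost, and these cannot be told apart.

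**Figure D5:**
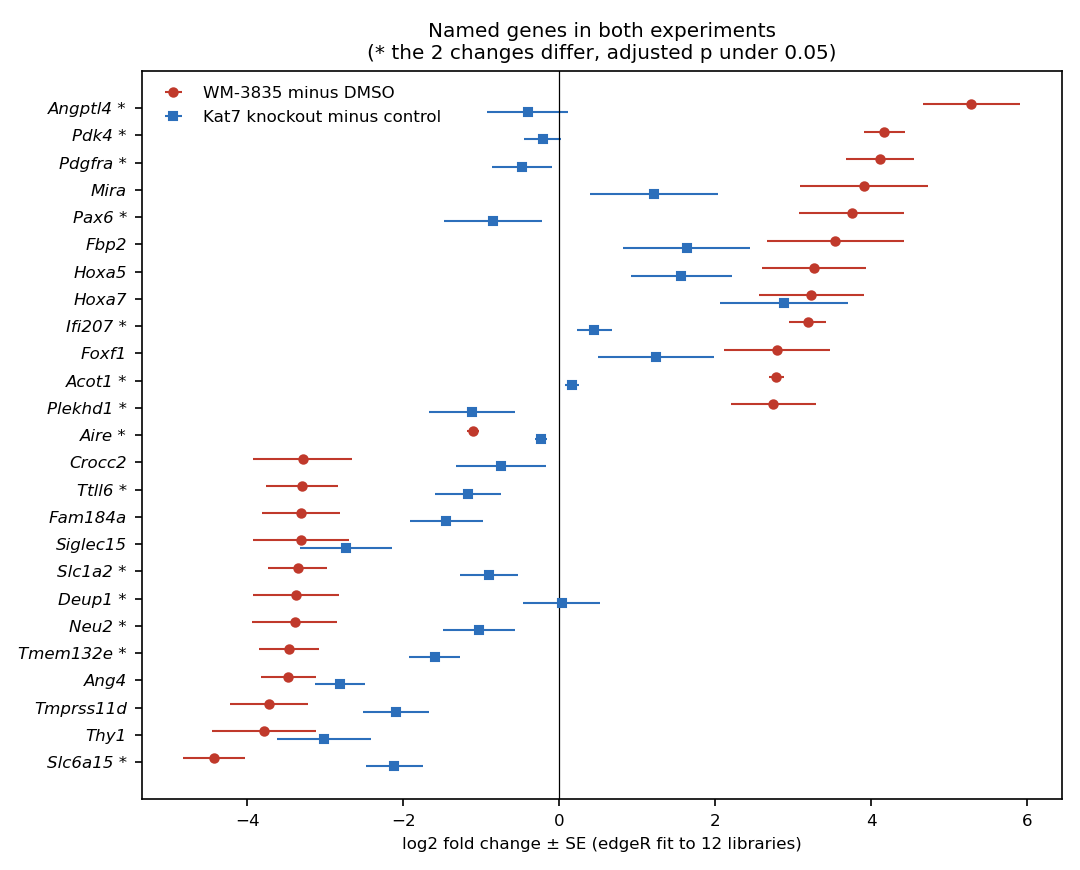
Log2 fold change ± SE (x axis) of Aire and the 12 largest rises and falls in the fit to 12 libraries, for WM-3835 against DMSO and for Kat7 knockout against control; an asterisk marks genes whose changes differed at an adjusted p below 0.05. The knockout values of Angptl4, Pdk4 and Acot1 lie near 0, and the Hoxa7 values of the experiments overlap within their SE.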

How the data were processed

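RNA was measured in sorted thymic epithelial cells with an unstranded TruSeq RNA v2 kit and 75-base paired-end reads, per the labels' protocols. The deposited values are raw counts per gene, made by the authors with featureCounts on mm10, per the submitters' processing notes. The 12 per-sample files equalled the series table, which holds 27179 genes. The 1312 without a symbol (0.671 to 0.689% of counts) were left out, and 17523 of 25867 passed edgeR's filter. Counts were TMM-scaled and tested in the 6 wild-type libraries with edgeR 4.0.16 (quasi-likelihood, Benjamini-Hochberg, R 4.3.3), because the biological coefficient of variation was 0.110 there and 0.269 and 0.183 in the control and knockout groups. SE is |log2 change|/√F, and CPM are TMM-scaled. The 3 replicates of a group are biological replicates per the design text. Same-numbered libraries deviated together only weakly (r 0.0471, 0.0775 and 0.0141), and no pairing was used.

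Named genes are Kat7, Aire, the 12 largest called changes each way (mean log2 CPM at least 1, no overlap) and the 4 smallest p-values of each list; other genes were named after their values were seen. Some genes that this rule names are not reported here. The members and lists were chosen with earlier results of these data known. Alternatives were the 12-library fit, other scalings and filters, DESeq2 1.42.0, limma 3.58.1 (voom), a test against 1.2-fold, a replicate block and leaving out each library; for detected genes and level and length quartiles, leave-one-out was added after seeing the data. The tests were checked on simulated counts with the same spread in every group and few changed genes. That check does not cover the unequal spread of the groups or a change of so many genes. RefSeq promoters and positions are of GRCm38.p6, the build mm10, and 97.6% of symbols had a position. The motif searches used exact letters on both strands.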

Additional observations from a re-analysis of the deposited data

Results flagged for a closer look

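The effects of WM-3835 and of Kat7 loss differed for 1887 genes in the interaction test of the 12-library edgeR fit. Each value here is the log2 change with WM-3835 minus that in the knockout, with an adjusted p below 0.05. Kat7 and Aire aside, the genes were chosen for large changes with WM-3835, which favours such a difference. Kat7 differed by 6.93, since the knockout removes its transcript and the compound does not. The metabolic genes Angptl4, Pdk4 and Acot1 differed by 5.69, 4.38 and 2.62. Pdgfra differed by 4.59, Pax6 by 4.60, Plekhd1 by 3.87 and Ifi207 by 2.74. Among genes that fell with the compound, the differences were -0.87 for Aire, -2.31 for Slc6a15, -2.45 for Slc1a2, -1.87 for Tmem132e and -2.35 for Neu2. The cilia-related genes Deup1 and Ttll6 differed by -3.40 and -2.13.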

How the results depend on the processing

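The number of called genes was 3490 in the 12-library fit (1744 higher, 1746 lower) and 2906 in a test against a change of 1.2-fold (1247 higher, 1659 lower), against 6070 reported (3012 higher, 3058 lower). Of the 3490, 3472 were among the 6070. Leaving out 1 library gave 4713 (without DMSO 3) to 5704 (without WM-3835 2), and the interaction count of 1887 ranged from 1346 to 2232 over such fits. DESeq2, voom, other scalings and other filters gave 5815 to 6352 calls. Upper-quartile scaling called 2516 higher and 3521 lower (58.3% lower), where the median of all genes was -0.05. Of 211 named genes called, 157 were called under each of 16 alternatives and none changed sign. The 12-library fit lost 27 and the 1.2-fold test 44 of these calls, and Kat7, Pth, Naa60, Hsph1, Alas2 and Slc4a1 were among those lost repeatedly. The median log2 change of the third expression quartile was 0.049 to 0.058 without 1 library, and that of the second gene-length quartile -0.0089 to 0.0057. The median of the third gene-length quartile was 0.01 with RLE scaling. Values under about 0.1 CPM rest on 3 or fewer counts.

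With a replicate block the count was 6681 and the interaction count 1884. Same-numbered libraries correlated at 0.0471, 0.0775 and 0.0141, and libraries of different numbers at -0.0811 to 0.0279. Such weak values cannot show whether same-numbered libraries share an origin. In some genes, such as Hspa5, Sdf2l1, Creld2, Psmb11 and Prss16, the same replicate number was highest in both groups.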
